A study of Mus musculus with 6 samples.

Results

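The oligoadenylate synthetase family was followed in RNA from spleen cells of D3TA and WT mice through 5 genes: Oas1a, Oas2, Oas3, Oasl1 and Oasl2. They were taken as the rows of the deposited gene table whose GENCODE M21 symbol was one of those names, which gave 5 of 24906 listed genes, and all 5 passed the filter on low values. The D3TA group held 3 C57BL/6J mice whose Ccnd3 gene, which encodes cyclin D3, had been edited with CRISPR/Cas9 so that alanine stands in place of threonine at residue 283. The line was kept heterozygous, and at the age sampled these animals have severe signs of myeloproliferative neoplasm. The WT group held 3 wild-type mice of matched age, 12 to 16 months, and no other allele or agent is named for either group. Each group has 3 libraries for its 3 mice, numbered 1 to 3, and values per library follow that order. The family was picked because Oas2 had already been seen to be higher in D3TA, so the differences between the groups in its 5 members are given below as a description, with no test.

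Oligoadenylate synthetases are enzymes that bind double-stranded RNA, such as that of replicating viruses, and respond by joining ATP into short chains with 2′-5′ linkages. These chains act as a messenger that leads to the cutting of viral and cellular RNA. Most genes of the family are induced by interferon, through transcription factors that recognise an interferon-stimulated response element (ISRE) in their promoters. In mouse, Oas1a, Oas2 and Oas3 encode synthetases built from increasing numbers of the catalytic unit, Oasl2 encodes a synthetase with ubiquitin-like domains, and Oasl1 encodes a family member without synthetase activity that restrains translation of Irf7.

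All 5 genes lie on chromosome 5 (GRCm38), in 2 clusters. Oasl2 (ENSMUSG00000029561, 114896936 to 114912234, plus strand) and Oasl1 (ENSMUSG00000041827, 114923240 to 114937915, plus strand) are neighbours in the first. Oas2 (ENSMUSG00000032690, 120730333 to 120749853), Oas3 (ENSMUSG00000032661, 120753098 to 120777661) and Oas1a (ENSMUSG00000052776, 120896256 to 120907521) lie in the second, all on the minus strand, and the tested Oas1 paralogs lie between Oas3 and Oas1a.

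Promoter windows of RefSeq (GRCm38.p6), from 250 bases before to 50 bases after the gene start, matched Oas1a, Oas3, Oasl1 and Oasl2. No window was available for Oas2. The windows are shown because an ISRE is the element through which interferon acts on this family. Whether matches bear on the differences between the members was not tested. The core searched was GAAA, then any 2 bases, then GAAA, on both strands and with overlapping matches counted. It was present in 3.44% of the 32851 windows in the RefSeq table and in the windows of 11 of 27 interferon-induced effector genes. The 250 bases before the gene start are printed 5′ to 3′ on the strand of the gene, with matches to the core in capitals. The positions are chr5:120777660-120777909 (minus strand) for Oas3, chr5:120907526-120907775 (minus) for Oas1a, chr5:114922990-114923239 (plus) for Oasl1 and chr5:114896684-114896933 (plus) for Oasl2.
Oas3: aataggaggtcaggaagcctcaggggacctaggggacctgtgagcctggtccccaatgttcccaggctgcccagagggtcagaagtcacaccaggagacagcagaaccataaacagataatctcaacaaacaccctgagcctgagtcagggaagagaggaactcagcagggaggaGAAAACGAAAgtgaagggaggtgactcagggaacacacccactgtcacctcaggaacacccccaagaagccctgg
Oas1a: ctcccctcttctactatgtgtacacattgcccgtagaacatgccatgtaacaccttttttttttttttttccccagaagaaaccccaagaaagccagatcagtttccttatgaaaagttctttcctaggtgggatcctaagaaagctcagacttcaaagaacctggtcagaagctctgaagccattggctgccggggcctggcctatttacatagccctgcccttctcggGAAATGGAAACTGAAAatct
Oasl1: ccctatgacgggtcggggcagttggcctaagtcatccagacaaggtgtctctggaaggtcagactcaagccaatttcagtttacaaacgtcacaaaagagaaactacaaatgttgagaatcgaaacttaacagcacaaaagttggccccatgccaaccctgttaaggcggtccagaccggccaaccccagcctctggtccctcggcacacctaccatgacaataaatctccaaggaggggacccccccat
Oasl2: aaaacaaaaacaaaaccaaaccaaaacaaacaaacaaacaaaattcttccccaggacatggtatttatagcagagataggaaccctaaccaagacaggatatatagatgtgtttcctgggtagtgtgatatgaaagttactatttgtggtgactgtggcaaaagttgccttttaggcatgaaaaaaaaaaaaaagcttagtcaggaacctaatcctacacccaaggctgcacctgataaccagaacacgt
Oas3 held 1 match, which begins 75 bases before the gene start. Oas1a held 2 overlapping matches, which begin 20 and 14 bases before it. These letters did not occur in the windows of Oasl1 and Oasl2. Only exact matches to the core were counted, so an element that varies from it would be missed. A match describes the sequence and does not show that a factor binds there.

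Between 14944622 and 19456838 reads were assigned to genes per library, and a normalized read count is a read count divided by a size factor for its library. Of 15564 genes tested with limma, 0 passed an adjusted p of 0.05, and 1542 had an unadjusted p under 0.05. On whole reads the quasi-likelihood test of edgeR called 0 genes, with 1606 under 0.05 before adjustment. Limma-voom called 0, with 1406 before adjustment, and DESeq2 called 407. All markers of B cells, T cells and red pulp macrophages, which are spleen cells, were detected in every library. The libraries also divided in other ways than by genotype. Hemoglobin transcripts took 6.39% to 6.75% of reads in D3TA-1, D3TA-2 and WT-3 and 1.40% to 1.91% in the others. Y-linked genes summed to normalized counts of 2420 in D3TA-3 and 2782 in WT-1 and to 43.4 to 253 in the other 4 libraries. WT-2 stood apart on the first principal component and had the most genes at 0. Genes at 0 numbered 4093, 3193 and 3527 in the D3TA libraries and 4902, 8449 and 5170 in the WT libraries. Every WT library thus had more of them than every D3TA library, and what this means for low WT values was not tested.

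Oas2 was the member with the widest separation between the groups. Its normalized counts were 166, 226 and 201 in the D3TA libraries. The WT libraries had 18.1, 22.4 and 24.2, which rest on 19, 20 and 25 reads. Every D3TA library thus lay far above every WT library, and the spread within each group was narrow, with a coefficient of variation of 15.3% in D3TA and 14.3% in WT. The difference was 3.14 ± 0.46 (limma SE) on the log2(normalized count + 1) scale. It was 3.12 without D3TA-3 and between 3.02 and 3.26 with any single library left out.

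Oas3, whose protein is the long synthetase with repeated catalytic units, lay next to Oas2 on the chromosome and was also high in every D3TA library. Its counts were 963, 687 and 714 in the D3TA libraries and 260, 208 and 92.8 in the WT libraries. The groups did not overlap, and D3TA-1 was the highest D3TA library here while it was the lowest for Oas2. The difference was 2.18 ± 0.41 (SE) on the same log2 scale, a 4.53-fold difference, and it was 1.74 without WT-3, the lowest WT library. Oas2 and Oas3 were thus 2 of the 5 members whose D3TA values all exceeded the WT values. Over all genes tested, 8.18% did so. Since that contrast chose the family, nothing is read from this count.

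**Figure D1:**
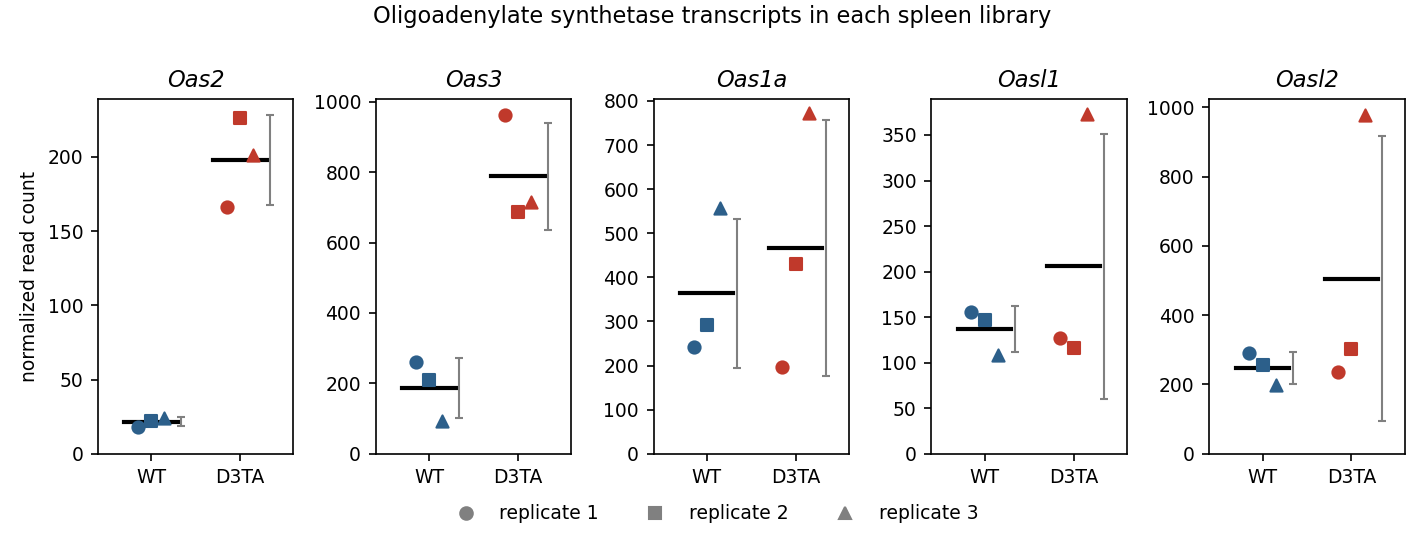
Normalized read counts of the 5 genes in each library, on linear axes that start at 0. Points are single libraries (marker shape gives the replicate number, and no pairing of mice across groups is stated), black lines group means and grey bars ± 1 SD (n = 3). Oas2 and Oas3 separated the groups, while Oas1a, Oasl1 and Oasl2 were highest in D3TA-3 and overlapped between the groups.

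Oasl2 was high in a single D3TA mouse. Its normalized counts were 236, 301 and 978 in the D3TA libraries against 289, 255 and 199 in the WT libraries. D3TA-1 and D3TA-2 therefore lay inside or just above the WT range, and D3TA-3 lay above every other library. The group difference of 0.74 ± 0.50 (SE) on the log2 scale became 0.12 without D3TA-3.

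Oasl1, its neighbour, was also highest in D3TA-3. The counts were 127, 116 and 373 in D3TA spleens against 156, 147 and 108 in WT spleens. The groups overlapped, and D3TA-3 alone exceeded the WT range. The difference was 0.39 ± 0.49 (SE), and without D3TA-3 it turned to -0.15. Oasl1 and Oasl2 followed each other across the 6 libraries more closely than any other pair of members, with a root mean square difference of 0.25 between their log2 values after each was centred on its mean. For the next closest pair, Oas1a and Oasl2, it was 0.64, for Oas2 and Oas3 0.78, and for Oas1a and Oas2, the farthest pair, 1.55.

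Oas1a, the interferon-induced short synthetase, varied widely in both groups. Its counts were 196, 431 and 774 in the D3TA libraries against 242, 292 and 557 in the WT libraries. The groups overlapped, with D3TA-1 the lowest library of all and D3TA-3 the highest. The difference was 0.24 ± 0.51 (SE), and it was -0.22 without D3TA-3. These counts are uncertain, because 57.6% of the 50-base words in the GENCODE M21 transcripts of Oas1a also occur in Oas1g, and how such reads were assigned is not given in the sources used here. The share of words that occur in any other gene was 0 for Oas2 and Oasl1, 0.521% for Oas3 and 0.138% for Oasl2. No step that marks the strand is described, and the words were compared in both orientations. Gm43068, a predicted transcript on the opposite strand, overlaps 1273 bases of the span of Oas2, introns included. It shares 0 of the 50-base words of the Oas2 transcripts.

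The hemoglobin and Y-linked divisions leave 1 or 2 libraries per genotype on each side, so values within them are given as a description. Among the libraries with a high hemoglobin share, with WT-3 as the 1 WT library, Oas2 was 2.95 and Oas3 3.12 higher in D3TA on the log2 scale. Among those with a low share, with D3TA-3 as the 1 D3TA library, Oas2 was 3.26 and Oas3 1.61 higher. Oasl2 differed by 0.42 and 1.84, Oasl1 by 0.17 and 1.30, and Oas1a by -0.93 and 1.54 in the same order. Between D3TA-3 and WT-1, the libraries high in Y-linked reads, the difference was 3.40 for Oas2, 1.45 for Oas3, 1.75 for Oasl2, 1.26 for Oasl1 and 1.67 for Oas1a. Between the other 4 libraries it was 3.01, 2.54, 0.24, -0.05 and -0.47 in the same order. Oas2, Oas3 and Oasl2 were above 0 on both sides of each division, Oas1a had opposite signs in both divisions and Oasl1 in that by Y-linked reads.

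**Figure D2:**
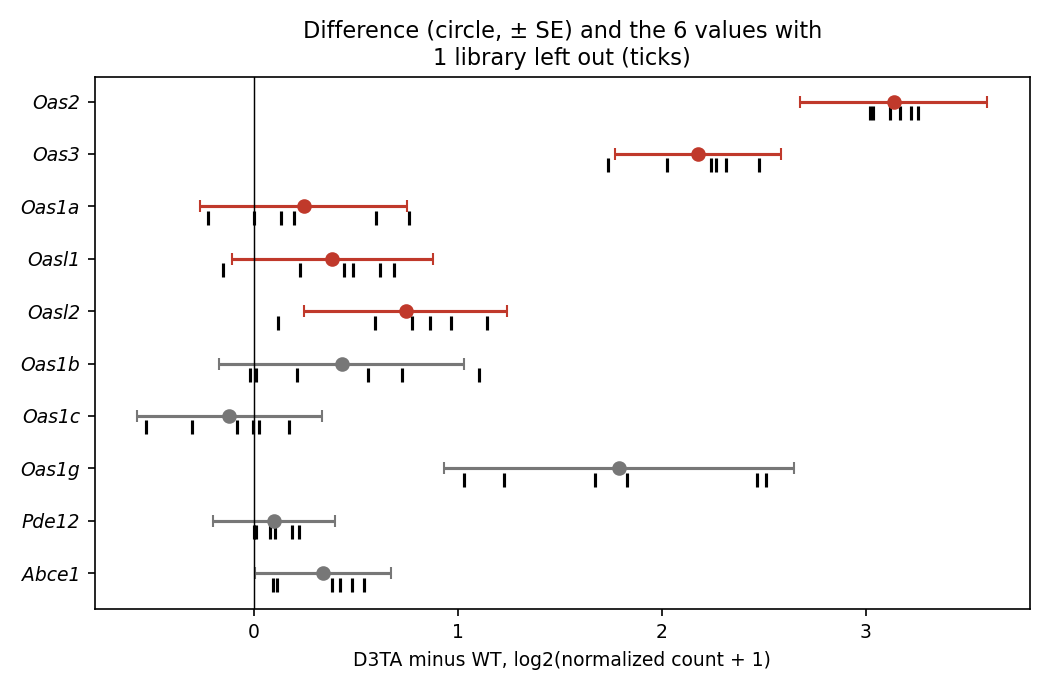
D3TA minus WT difference on the log2(normalized count + 1) scale for the 5 members (red) and for the Oas1 paralogs, Pde12 and Abce1 (grey), with circles for all 6 libraries, bars for ± 1 limma SE and black ticks for the 6 values with 1 library left out. The lowest tick of Oas3 is at 1.74 and that of Oas2 at 3.02, while those of Oas1a and Oasl1 crossed 0.

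Per length of exon the members differed by more than an order of magnitude in WT spleen. Oas1a was the most abundant, at 193 ± 89.8 normalized counts per kb (SD, n = 3). Oasl1 followed at 52.5 ± 9.66, Oasl2 at 38.9 ± 7.15 and Oas3 at 26.4 ± 12.1. Oas2 was the lowest, at 4.84 ± 0.694. The ranges of Oasl1 and Oasl2 overlapped, as did those of Oasl2 and Oas3, so the order within each of those pairs is not beyond their spread. The lowest Oas1a library (128) lay above the highest of Oasl1 (59.7), and the lowest Oas3 library (13.1) lay above the highest of Oas2 (5.43).

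In D3TA spleen the order on the per-length scale was Oas1a at 248 ± 154, Oas3 at 111 ± 21.5, Oasl2 at 79.2 ± 64.5, Oasl1 at 78.9 ± 55.7 and Oas2 at 44.5 ± 6.80 (SD, n = 3 each). All neighbours in that order overlapped. Of the summed per-length level of the 5 members, Oas2 made up 1.40% to 1.76% in WT and 5.30% to 10.8% in D3TA. The share of Oas1a ran from 28.6% in D3TA-1 to 76.4% in WT-3.

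**Figure D3:**
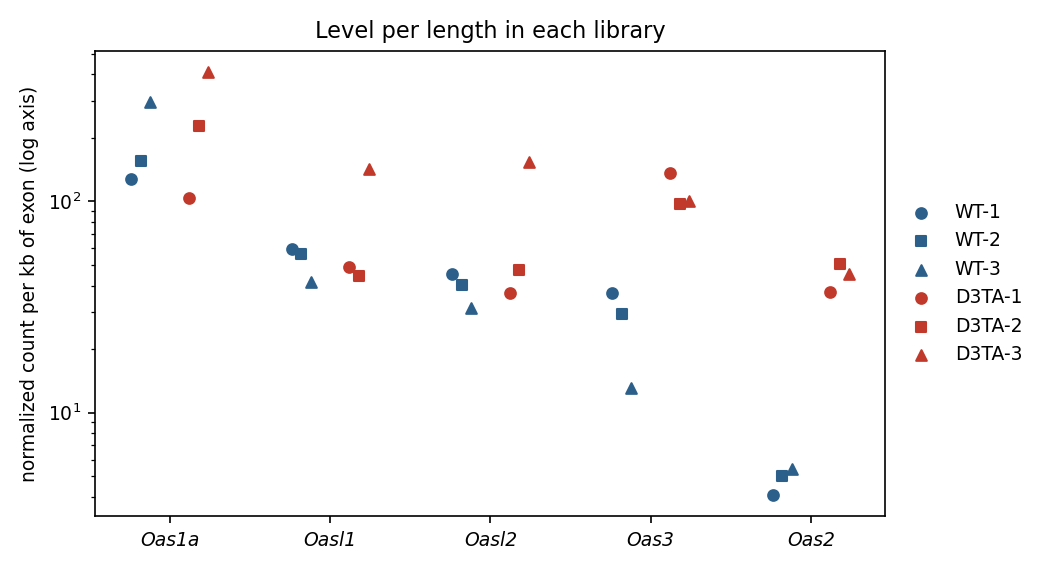
Normalized count per kb of exon (union of GENCODE M21 exons) for the 5 members in each library, on a log axis, with blue for WT, red for D3TA and marker shape for the replicate number. Oas2 sat near 5 in all 3 WT libraries, below every other gene shown, and between 37.3 and 50.8 in D3TA.

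The tested Oas1 paralogs overlapped between the genotypes. Of 7 paralogs, 6 had a row and 3 passed the filter on low values, and in those 3 the groups overlapped. Oas1g, the near copy of Oas1a, had counts of 33.2, 102 and 190 in the D3TA libraries against 25.8, 7.83 and 67.7 in the WT libraries, with a log2 difference of 1.79 ± 0.86 (SE) and an adjusted p of 0.533 in limma. That difference was 1.03 without WT-2, its lowest library. Like Oas1a, it was highest in D3TA-3. Oas1b, annotated as a polymorphic pseudogene, differed by 0.43 ± 0.60 (adjusted p 0.845), with D3TA-3 as its lowest library at 84.7. Oas1c differed by -0.12 ± 0.45 (adjusted p 0.951).

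Pde12 and Abce1 overlapped between the groups. Pde12, a phosphodiesterase that breaks down the 2′-5′ chains, had means of 396 ± 48.8 in D3TA and 371 ± 58.8 in WT spleens (SD, n = 3 each), a log2 difference of 0.10 ± 0.30 (SE; limma adjusted p 0.933). Abce1, a ribosome recycling factor, had counts of 3062, 1642 and 2046 against 1932, 2094 and 1254, a difference of 0.34 ± 0.33 (SE; limma adjusted p 0.768).

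Tested genes flanking Oas2 and Oas3 lay on both sides of 0. Genes within 300 kb of Oas2 were looked at after the values had been seen. Besides the members, 12 tested genes lay there, of which 1 had all D3TA values above WT and 2 had them below. Over all genes tested these shares were 8.18% and 6.84%. The nearest tested gene on one side, Dtx1, a regulator of Notch signalling found in B cells, was lower in D3TA, at 720, 1229 and 1112 against 4775, 3517 and 1356 in WT, with a log2 difference of -1.51 (limma adjusted p 0.315). Rasal1, the next, was also lower, at 63.2, 116 and 109 against 204, 225 and 142, with no overlap (limma adjusted p 0.467). On the other side of Oas3 came Oas1c and Oas1b, whose groups overlapped. Iqcd, farther out, was at 75.0, 30.3 and 6.05 against 0, 0 and 15.5, and its groups overlapped. Its log2 difference, 3.33 ± 1.44 (SE; limma adjusted p 0.482), was the largest in the window.

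**Figure D4:**
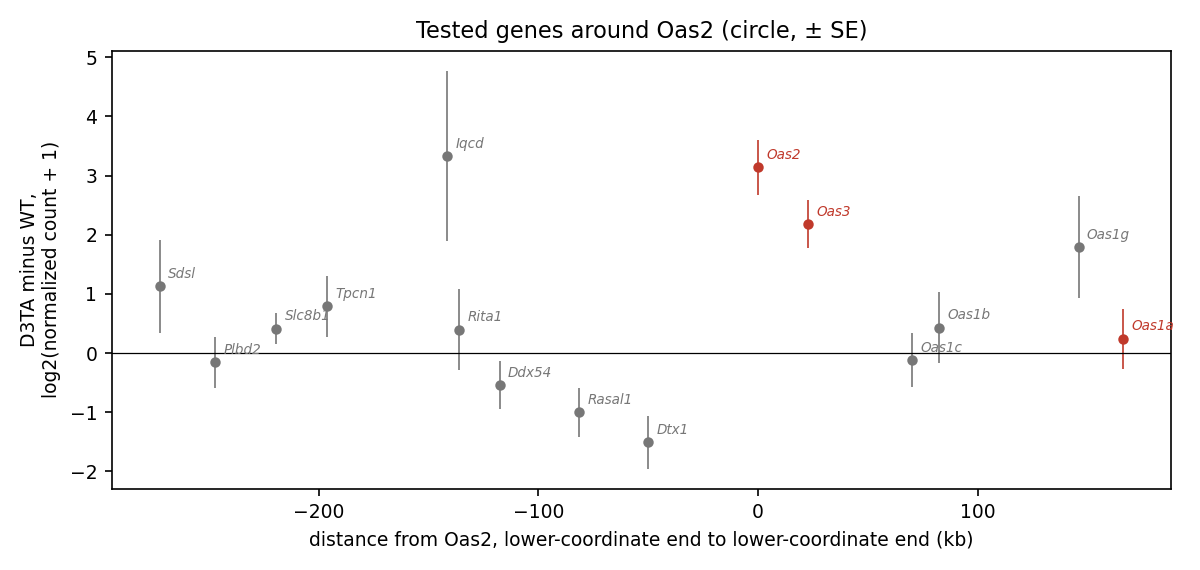
D3TA minus WT difference on the log2(normalized count + 1) scale (circle, with ± 1 limma SE) of each tested gene within 300 kb of Oas2, against its distance in kb. Red marks members. Oas2 and Oas3 stand at 3.14 and 2.18, between Dtx1 at -1.51 and Oas1c at -0.12. Iqcd, farther out, stands at 3.33 with a wide bar.

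The list of RNA and DNA sensors included 2 of 11 genes whose D3TA values all lay above WT, beside 8.18% of all genes tested. Of the 11 tested sensors 0 were called by limma, 8 lay above 0 and the median log2 difference was 0.04, beside 54.5% above 0 and a median of 0.06 over all genes tested. Eif2ak2 encodes PKR, a kinase that, like the synthetases, is switched on by double-stranded RNA. It was at 570, 583 and 634 in D3TA and 303, 384 and 338 in WT. The groups did not overlap, and the log2 difference was 0.80 ± 0.28 (SE), with a limma adjusted p of 0.396. Cgas, the DNA sensor, was at 183, 139 and 134 against 129 or less in the WT libraries, with a limma adjusted p of 0.585.

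Few interferon genes themselves were detected. Of 21 ligand genes looked for, 7 had a row and 1, Ifng, passed the filter. Ifng, the interferon of T and NK cells, had counts of 2.14, 30.3 and 64.0 in D3TA spleens against 20.1, 72.7 and 68.6 in WT spleens (limma adjusted p 0.711). The D3TA-1 value is 2 reads, below the 3 reads treated as a level. The log2 difference of Ifng was -1.36, and -0.08 without D3TA-1. Among 20 receptor and signalling genes 6 lay above 0, and the median log2 difference was -0.19, with 0 called. Ifnlr1, the specific chain of the interferon lambda receptor, had counts of 262, 181 and 167 in D3TA spleens against 32.5, 49.2 and 4.83 in WT spleens. Its groups did not overlap, and the log2 difference was 3.23 ± 0.75 (SE; adjusted p 0.219). The difference was 2.29 without WT-3, where Ifnlr1 had 5 reads. Irf7, the factor that amplifies type I interferon, had counts of 1103, 1495 and 4481 in D3TA spleens against 686, 924 and 1528 in WT spleens (adjusted p 0.567). It was highest in D3TA-3, as were Oasl1 and Oasl2, and its groups overlapped.

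Most interferon-induced effectors were highest in 1 mouse. Of 33 tested, 22 lay above 0, the median log2 difference was 0.20 and 0 were called by limma. In 3 of the 33 all D3TA values lay above WT, and in 0 below, beside 8.18% and 6.84% of all genes tested. Rsad2, which encodes the antiviral enzyme viperin, had counts of 6675, 5403 and 1799 in D3TA spleens against 1464, 911 and 1543 in WT spleens, a log2 difference of 1.66 ± 0.47 (SE) with an adjusted p of 0.290. Cmpk2, its neighbour gene for a nucleotide kinase, was at 1256, 800 and 728 against 432, 534 and 546 (limma adjusted p 0.411). Rsad2 and Cmpk2 were lowest, among D3TA libraries, in D3TA-3. The third without overlap, Herc6, a ligase of the ISG15 pathway, was named after its values were seen, at 292, 387 and 366 against 158, 210 and 232. Isg15 and Mx1 were likewise chosen afterwards, as the rest of the 5 effectors with an unadjusted limma p under 0.05 and a higher level in D3TA (over all genes tested 6.08% were so and 3.83% were lower), and both overlapped between the groups.

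Most effectors were highest in D3TA-3, as Oas1a, Oasl1 and Oasl2 were. D3TA-3 was the highest of the 6 libraries for 21 of 33 effectors, 7 of 11 sensors, 7 of 20 receptor and signalling genes, 3 of 5 Oas members and 16 of 17 interferon gamma-induced GTPase and chemokine genes. It was the highest for 14.1% of all genes tested. Relative to the WT mean, the effectors had median log2 values of -0.30, 0.03 and 0.83 in the D3TA libraries, beside 0.07, 0.05 and 0.06 for all genes. For the interferon gamma group they were -1.18, -0.34 and 0.92. Without D3TA-3, 15 of 33 effectors lay above 0 with a median log2 difference of -0.12, 4 of 11 sensors with a median of -0.15, and 1 of 17 interferon gamma genes with a median of -0.71. Within this last group 0 genes were called. Nlrc5, a regulator of MHC class I genes, had means of 997 ± 276 and 693 ± 131 in the D3TA and WT groups (SD, n = 3 each; limma adjusted p 0.648). Gbp3, a guanylate-binding protein, had means of 779 ± 477 and 1014 ± 53.7 (SD, n = 3 each; limma adjusted p 0.698). The pattern rests on 1 mouse and has no replicate. Within the libraries of high and of low hemoglobin share, in that order, the log2 difference was 0.77 and 0.89 for Eif2ak2 and 1.96 and 0.64 for Rsad2. For Irf7 it was -0.25 and 2.49, with opposite signs. For Ifnlr1 it was 5.23 and 2.03, and the first of these is set against WT-3 alone, with 5 reads.

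**Figure D5:**
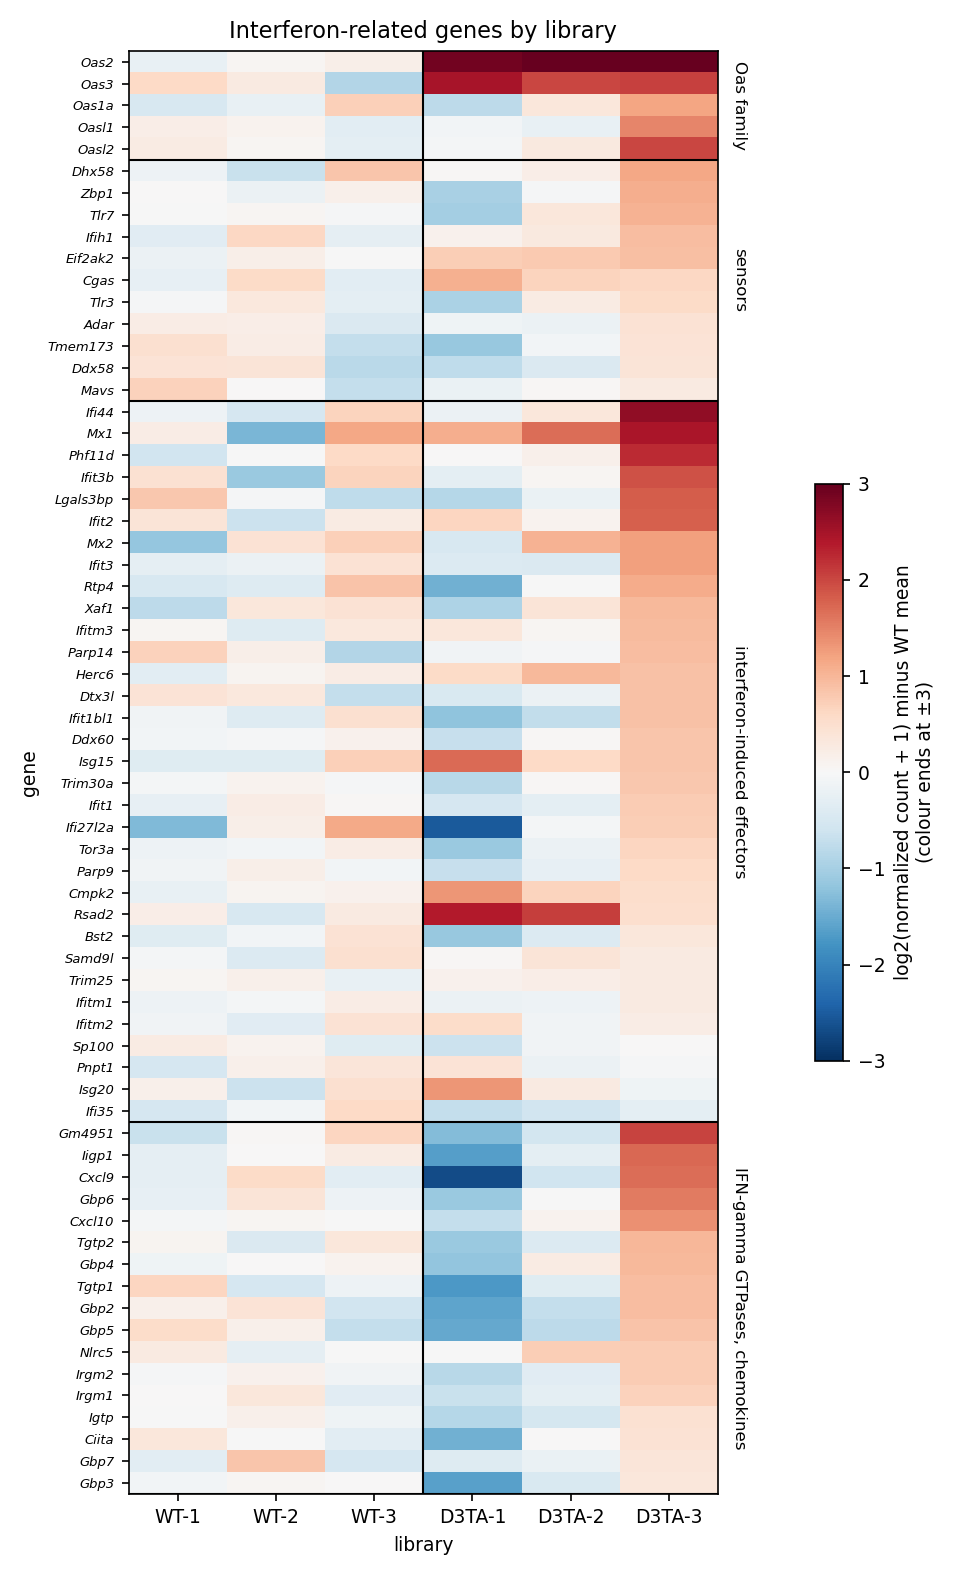
Log2(normalized count + 1) minus the WT mean of the gene, in each library (columns) for tested genes (rows) of the Oas family, the sensors, the interferon-induced effectors and the interferon gamma group. Red is above and blue below the WT mean, and rows below the Oas family are sorted by their value in D3TA-3. Oas2 and Oas3 are red in all 3 D3TA columns, and D3TA-3 is the highest column for 21 of 33 effectors and 16 of 17 interferon gamma genes.

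Markers of several cell types also differed between the libraries. In bulk samples fewer cells of a type and less RNA per cell cannot be told apart. All 10 neutrophil markers lay above 0, 9 of them without overlap, beside 54.5% and 8.18% of all genes tested. Their summed normalized count was 294150, 254287 and 50732 in the D3TA libraries, against 7973 to 16519 in WT. Within the D3TA group the sum and Oas3 were highest in D3TA-1, where Oas2 was lowest. From D3TA-2 to D3TA-3 the sum fell, while Oas3 was at 687 and 714. All 5 basophil and mast cell markers lay above 0, 4 of them without overlap, beside the same shares. They summed to 1050, 762 and 811 in the D3TA libraries and to 331 to 365 in WT, with Ms4a2 at 0 in WT-2. All 8 B cell markers lay below 0, with sums of 10747 to 35527 in D3TA and 56877 to 69998 in WT. Markers of conventional dendritic cells summed to 4050 in D3TA-3 and to 1818 to 2710 in the other 5 libraries. Of these 6 markers 3 lay above 0. Monocyte markers, of which 4 of 6 lay above 0, summed to 10565 to 12379 in D3TA and to 6073 to 8969 in WT. Markers of plasmacytoid dendritic cells, which make type I interferon, summed to 5347, 9081 and 14532 in the D3TA libraries and to 11601 to 13420 in WT. Of these 8 markers 1 lay above 0. The D3TA-3 sum included Irf8 at 7723 and Bst2 at 4257, which also stand in the interferon lists. No marker of the B cell, monocyte or dendritic lists was at 0 in any library. The part of these cell types in the Oas values was not tested.

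The 5 genes whose profile over the 6 libraries came nearest to Oas2 belonged to none of the interferon lists. The lists other than the members hold only 88 of the 15564 genes tested, so that outcome is likely for any 5 genes. The profile also includes the contrast that chose Oas2, and nothing is read from the outcome. The measure was the root mean square difference of log2(normalized count + 1) values centred on each gene's mean. Among the 5 nearest were Epha1, an ephrin receptor, at 0.37, Prg4, which encodes lubricin, at 0.54, Gm34093 at 0.59 and Arntl2, a circadian clock factor, at 0.60. Apart from Prg4, which reached 88.9, the counts of these genes did not exceed 20.7 in any library. For the mean of the other 4 members the nearest were Rcor2, a transcriptional corepressor, at 0.17, Slc25a13, a mitochondrial carrier, at 0.18, Spp1, which encodes osteopontin, at 0.20, Gnaz at 0.20 and Abcb1b, a drug exporter, at 0.20. These genes were selected for likeness from all genes tested, and no shared function is implied.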

How the data were processed

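Polyadenylated RNA from spleen cells was sequenced in 3 D3TA and 3 WT mice. HISAT2, Trim Galore, DESeq2, FastQC, CASAVA and the build mm10 are named in the submitters' processing notes. Which program counted reads is not given in the sources used here. The deposited values are a signal, namely read counts per gene scaled by the authors with 1 factor for each library, since 100% of 149436 values were whole multiples of 1 step per library, within 0.001 of a read. Because the values are not raw counts, limma was the main test and count tests on the recovered reads were alternatives. In each library 3 reads, the smallest count treated as a level, equal a normalized count of 2.59 to 3.36, for counting error only.

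The 15564 genes that reached a normalized count of 10 in 3 or more libraries entered limma 3.58.1 (trend, robust, 2-sided, genotype alone) on the log2(normalized count + 1) scale, with Benjamini-Hochberg adjustment over all of them. A fold is 2 raised to that difference, which understates low genes. The test was checked on simulated counts. Alternatives were other pseudocounts (0.5 and 5), filters, scalings (TMM and RLE), leaving out libraries one at a time, a replicate block, terms for high Y-linked reads and for hemoglobin over 5% of reads, limma-voom, edgeR 4.0.16 and DESeq2 1.42.0, in R 4.3.3; figures used matplotlib 3.10.9. Symbols, coordinates and exon lengths came from GENCODE M21 (24895 of 24906 identifiers).

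The members and lists were chosen with earlier results of these data known. Named genes were the members, their tested paralogs, the genes that act on the 2′-5′ chains or downstream of them, the 2 genes with the smallest p of each other list and the 5 nearest profiles; others are said to be named after their values were seen. Some of the genes so chosen are not reported here. P-values set a difference between the groups against the spread between these mice.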

Additional observations from a re-analysis of the deposited data

How the results depend on the processing

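The count of 0 genes called became 44 with no filter, 15 with a term for Y-linked reads, 11 with a term for the hemoglobin share and 407 with DESeq2, and ranged from 0 to 306 with 1 library left out, the highest value being without D3TA-3. As a count only, since this contrast chose the family and is no test of it, the 0 members called became 2 (Oas2 and Oas3) with no filter and 2 with DESeq2, and ranged from 0 to 2 with 1 library left out. The 0 genes called among the 88 tested genes of the other lists became 2 with DESeq2 (Ifnlr1 and Rsad2) and ranged from 0 to 1 (Rsad2, without D3TA-3) with 1 library left out. The replicate block called 0 genes and 0 members. Over all genes tested, same-numbered mice did not deviate together (correlations of -0.06, -0.0046 and -0.13). The labels state no pairing, and with 3 mice per group these correlations cannot exclude it. Oas2, Oas3, Oasl2, Oas1g and Abce1 kept a positive difference under all 18 alternatives, Oas2 between 2.93 and 3.26 and Oas3 between 1.74 and 2.48. The sign turned for Oas1a without D3TA-3 (-0.22) and without WT-1 (-0.00083), for Oasl1 without D3TA-3 (-0.15), for Oas1b without D3TA-2 (-0.019) and with the hemoglobin term (-0.052), for Oas1c without D3TA-3 (0.02) and without WT-2 (0.175), and for Pde12 without WT-3 (-0.0014). With 1 library left out, Oas1a ranged from -0.22 to 0.76, Oasl1 from -0.15 to 0.69, Oas1b from -0.019 to 1.10, Oas1c from -0.53 to 0.175 and Pde12 from -0.0014 to 0.22. Without a filter the median over all genes was 0.18, against 0.06. The cause of these shifts was not tested. With 19 to 25 reads of Oas2 in each WT library, its WT level is known only within counting error of such numbers.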
